A study of Mus musculus with 6 samples.

Results

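*Fam20c*, *Tmem178* and *Gas2l3* are 3 of the 18193 genes that the arrays measured by probe sets of 1 gene symbol, a probe set being the group of array probes designed for 1 transcript. They were selected on large rises in microglia of SOD1 G93A mice against WT mice, so their differences between the genotypes are given as a description, without a test. All of their 7 probe sets, of 45037 other than Affymetrix controls, were used: 3 of *Fam20c*, 1 of *Tmem178* and 3 of *Gas2l3*. SOD1 G93A mice carry, in many copies, a human SOD1 transgene with a mutation that causes familial ALS, and both groups were males of a B6SJL background at 90 days of age (P90, early symptomatic), the WT mice being littermates without the transgene. Microglia were sorted for CD11b from the lumbar spinal cord, and each of the 3 arrays per genotype held RNA of cells pooled from at least 6 mice. Values are log2 signals, so a difference of 1 is a 2-fold change. The SD given is over arrays, so it mixes the variation among pools of mice with that of sorting, amplification and hybridisation.

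FAM20C is the Golgi kinase that phosphorylates secreted proteins, among them the casein and bone matrix proteins, and its loss in humans causes the bone disease Raine syndrome. TMEM178 is a membrane protein of the endoplasmic reticulum. In precursors of osteoclasts, the bone-resorbing relatives of macrophages, it binds the calcium sensor STIM1 and limits calcium entry and the activity of NFATc1. GAS2L3 belongs to the GAS2 family, which links actin filaments to microtubules. It binds the chromosomal passenger complex, acts in cytokinesis, and its gene is a known target of the DREAM complex, a regulator of cell cycle genes.

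The sequences directly before the annotated start of each gene are shown so that the starts of the 3 selected genes can be read beside each other. They are RefSeq sequences of build GRCm38.p6, with 250 bases each on the strand of the gene, and all 3 genes had an entry. *Fam20c* lies on chromosome 5 (138755081 to 138810063), *Tmem178* on chromosome 17 (80944632 to 81001816) and *Gas2l3* on chromosome 10 (89408822 to 89443980). Capitals mark matches to the CCAAT box (CCAAT) or to the cell cycle homology element (CHR), which was searched as TTTGAA, with TTTAAA and with TTCGAA as its other forms, on either strand.
Fam20c, chr5:138754831-138755080, plus strand: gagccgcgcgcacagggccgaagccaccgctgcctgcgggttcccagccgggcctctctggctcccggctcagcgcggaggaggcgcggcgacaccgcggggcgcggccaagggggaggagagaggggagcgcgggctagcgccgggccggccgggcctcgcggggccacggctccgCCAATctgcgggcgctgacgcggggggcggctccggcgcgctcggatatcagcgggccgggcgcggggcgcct
Tmem178, chr17:80944382-80944631, plus strand: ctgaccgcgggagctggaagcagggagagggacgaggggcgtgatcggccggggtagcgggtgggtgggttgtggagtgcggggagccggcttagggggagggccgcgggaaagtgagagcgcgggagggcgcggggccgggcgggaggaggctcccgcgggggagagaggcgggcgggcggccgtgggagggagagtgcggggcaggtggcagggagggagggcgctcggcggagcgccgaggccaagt
Gas2l3, chr10:89443968-89444217, minus strand: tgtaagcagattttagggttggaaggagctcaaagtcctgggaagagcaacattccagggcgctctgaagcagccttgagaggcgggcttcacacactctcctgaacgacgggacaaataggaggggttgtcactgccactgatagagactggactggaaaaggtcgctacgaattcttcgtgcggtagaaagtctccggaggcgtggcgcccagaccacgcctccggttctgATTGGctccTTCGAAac

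*Fam20c* had a CCAAT box at positions -73 to -69, counted from the start. *Gas2l3* had one, read on the opposite strand, at -17 to -13, and a CHR match (TTCGAA) at -8 to -3. The last 13 bases of its window lie inside the annotated span of the gene, which has more than 1 start. They hold the whole CHR match and the last base of the CCAAT match. *Tmem178* had neither motif. Of 32851 such windows of mouse genes, 33.8% held a CCAAT box and 26.2% a CHR match, so the matches are common. The core GAGGAA of the myeloid factor PU.1 (23.3% of windows), the AP-1 site TGANTCA (6.75%) and the E-box CACGTG (6.02%) were found in none of the 3 windows. The matches did not overlap each other, and the motifs were chosen after the sequences had been read. The GC content was 81.2% for *Fam20c*, 77.2% for *Tmem178* and 55.2% for *Gas2l3*, against a median of 52.4% over all windows.

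The arrays were alike in their medians (5.93 to 5.97). *Itgam*, which encodes CD11b, had values of 8.72, 8.66 and 8.74 in SOD1 G93A and 8.40, 9.0 and 8.79 in WT arrays (difference -0.02, adjusted p = 0.952), and the microglial gene *Aif1* had a difference of 0.34 (adjusted p = 0.12). Genes were called from limma where the p, after Benjamini-Hochberg adjustment over all 18193 genes, was under 0.05. At that threshold 4.09% of all genes were higher and 2.53% lower in SOD1 G93A arrays. Before adjustment 3929 of the 18193 genes had a limma p under 0.05, so unadjusted counts in the lists below are to be read beside that number. Of 14 microglial markers 3 were higher and 1 was lower. Markers of other cells were lower, with 6 of 12 for astrocytes, 2 of 11 for oligodendrocytes, 5 of 14 for neurones (1 was higher), 6 of 10 for border macrophages (1 was higher), 3 of 13 for neutrophils and monocytes and 1 of 12 for lymphocytes, while of 11 endothelial and mural markers 1 was higher. These counts depended on single arrays. Without SOD1 G93A replicate 2, SOD1 G93A replicate 3, WT replicate 2 or WT replicate 3, left out in turn, 1 border macrophage marker was lower and 0 were higher, and 1 oligodendrocyte marker was lower. Lower astrocyte markers numbered 1 without SOD1 G93A replicate 2, 3 without SOD1 G93A replicate 3 and 2 without WT replicate 2. Lower neutrophil and monocyte markers numbered 8 without WT replicate 1 and 1 without any other array, against 9 with the replicate number as a block and 10 without both arrays numbered 1. Lower lymphocyte markers numbered 0 without SOD1 G93A replicate 2 or 3 and 2 without WT replicate 1, while lower neurone markers stayed between 4 and 6. Microglial markers that were higher numbered 1 without SOD1 G93A replicate 2 or WT replicate 3, and 0 were lower without SOD1 G93A replicate 3. The 1 neurone marker that was higher was not called without SOD1 G93A replicate 2 or 3 or WT replicate 1 or 3, nor the endothelial one without SOD1 G93A replicate 3. The summed linear signal of the astrocyte list was 1322 to 2210 in SOD1 G93A and 2957 to 5536 in WT arrays, that of the oligodendrocyte list 9722 to 10763 and 15770 to 23330, and that of the neurone list 641 to 784 and 1223 to 1401. For border macrophages it was 4656 to 6338 and 8236 to 9524, for neutrophils and monocytes 57706 to 84869 and 75211 to 123537, and for lymphocytes 690 to 773 and 932 to 977. Microglial markers summed to 73265 to 79771 and 67478 to 72056. The neutrophil and monocyte sums were thus of similar size, and the microglia named in this report are the CD11b-sorted cells as a whole. Of the listed markers 1 oligodendrocyte, 3 neurone, 2 lymphocyte and 1 endothelial marker had a signal under 5 in both genotypes, close to background. In pooled cells, fewer cells of a type and less RNA per cell cannot be told apart, and the part of these markers in the results below was not tested. The 3' minus 5' signal of *Gapdh*, larger where RNA copies are shorter, was 4.12 ± 0.59 (SD, n = 3) in SOD1 G93A and 4.89 ± 0.11 (SD, n = 3) in WT arrays. The genotypes did not overlap in the *Gapdh* signal, so a fit with this signal as a covariate cannot fully separate it from the genotype. The same measure of *Actb* was 2.67 ± 0.72 (SD, n = 3) in SOD1 G93A and 3.42 ± 0.49 (SD, n = 3) in WT arrays, and there the genotypes overlapped.

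*Fam20c*, the gene of the secretory kinase, was 9.09-fold higher in SOD1 G93A microglia. By its brightest probe set (1417688_at) the log2 signals were 9.87, 10.25 and 10.18 in the SOD1 G93A arrays and 6.96, 6.82 and 6.97 in the WT arrays. The genotypes did not overlap, and the arrays of each lay close to each other. The means were 10.1 ± 0.20 and 6.92 ± 0.08 (SD, n = 3 each), a difference of 3.18 (standard error 0.127). This was rank 4 among the rises of all genes. The probe set 1443827_x_at had 9.39, 9.57 and 9.50 in SOD1 G93A and 7.55, 6.74 and 6.88 in WT arrays. The difference was 2.43 (standard error 0.196), with 1 WT array, replicate 1, above the other 2. The dimmest, 1457648_x_at, had 5.60, 5.92 and 5.61 against 4.0, 3.21 and 3.65. Its difference was 2.09 (standard error 0.194), and its WT signals lie under 5, close to background, so the size of that difference is uncertain. The suffix x marks probe sets that can bind other transcripts, and the probe set without it had the largest of the 3 differences. With the mean of the 3 probe sets the difference of the gene was 2.57.

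**Figure D1:**
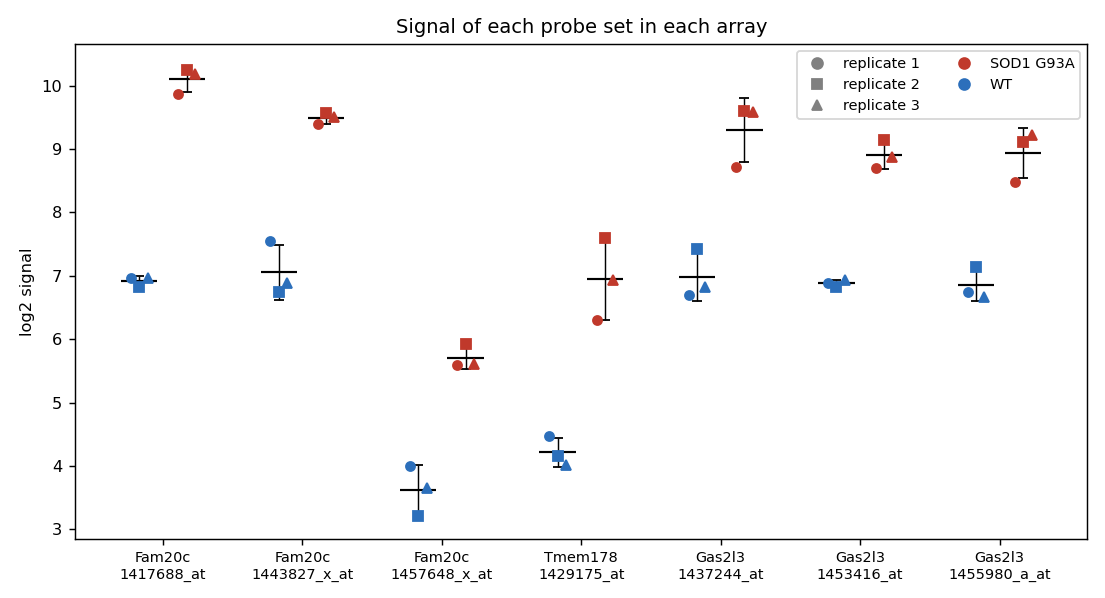
Log2 signal of the 7 probe sets of *Fam20c*, *Tmem178* and *Gas2l3* in each array, red for SOD1 G93A and blue for WT, with the replicate number as the shape. Black bars are means with the SD of 3 arrays; in all 7 probe sets every SOD1 G93A array lies above every WT array, and SOD1 G93A replicate 1 (circle) is the lowest of its group.

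The relatives of *Fam20c* had differences close to 0. *Fam20a*, which encodes a pseudokinase that assists FAM20C, had 5.85, 5.58 and 5.55 in SOD1 G93A and 5.78, 5.58 and 5.69 in WT arrays (difference -0.03, adjusted p = 0.936). *Fam20b*, the xylose kinase of proteoglycan synthesis, had 7.87, 8.11 and 8.03 against 8.10, 7.99 and 7.98 (difference -0.02, adjusted p = 0.943), and its 2 other probe sets had -0.23 and -0.01. For both genes the arrays of the genotypes overlapped. Of 10 measured kinases and related proteins of the secretory pathway other than *Fam20c*, 1 was higher, 0 were lower (2 at an unadjusted p under 0.05) and 9 did not pass limma's test, with a median difference of -0.04 beside 0.022 over all genes. The 1 that rose was *Dipk2a*, with 7.96, 8.38 and 8.5 against 7.52, 7.70 and 7.73 (difference 0.63, adjusted p = 0.0428). Its adjusted p was 0.144 without SOD1 G93A replicate 2, 0.154 without SOD1 G93A replicate 3, and 0.0895, 0.103 and 0.107 without WT replicates 1, 2 and 3. With its probe sets averaged the difference was 0.40 (adjusted p = 0.0637).

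Among 17 measured genes of proteins that FAM20C is known to phosphorylate, 2 were higher, 0 were lower (0 at an unadjusted p under 0.05) and 15 did not pass, with a median difference of 0.01. *Apoe*, which encodes apolipoprotein E, had 14.15, 14.37 and 14.51 in SOD1 G93A and 12.49, 12.89 and 12.84 in WT arrays. It rose by 1.60 (standard error 0.146, adjusted p = 0.00124). The SOD1 G93A signals lie close to the highest of any array (14.59), where the size of a change is uncertain. *P4hb*, of protein disulphide isomerase, rose by 0.66 (adjusted p = 0.0401). Its adjusted p was 0.106 and 0.134 without SOD1 G93A replicates 2 and 3, and 0.0821, 0.0549 and 0.124 without WT replicates 1, 2 and 3. Of the 17 genes, 6 had a signal under 5 in both genotypes. The mineral matrix genes *Ibsp*, *Dmp1* and *Enam* are among these 6 and were named after their values were seen. The list does not hold every such protein, so its counts and median cover the listed genes only. The gene of the bone matrix protein osteopontin, *Spp1*, which the paper reports as increased in these microglia, is not among them.

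*Tmem178*, the gene of the calcium-limiting membrane protein, was 6.64-fold higher in SOD1 G93A microglia. Its single probe set (1429175_at) had 6.30, 7.60 and 6.94 in the SOD1 G93A arrays and 4.47, 4.16 and 4.02 in the WT arrays. The genotypes did not overlap, and the SOD1 G93A arrays were spread over more than 1 log2 unit, with replicate 1 the lowest and replicate 2 the highest. The means were 6.95 ± 0.65 and 4.22 ± 0.23 (SD, n = 3 each), a difference of 2.73 (standard error 0.284) and rank 7 among the rises. All 3 WT signals lie under 5, close to background, so the WT level and the fold are uncertain. *Tmem178b*, its paralogue, had 6.02, 5.95 and 5.78 against 6.12, 6.26 and 6.04 (difference -0.22, adjusted p = 0.318).

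Of 26 measured genes of phospholipase C gamma signalling and store-operated calcium entry, 0 were higher (4 at an unadjusted p under 0.05), 2 were lower and 24 did not pass limma's test, with a median difference of -0.10. *Rcan2*, which encodes a regulator of calcineurin, had 6.97, 7.56 and 6.79 in SOD1 G93A and 8.13, 8.58 and 8.55 in WT arrays. It fell by 1.31 on the log2 scale (standard error 0.207, adjusted p = 0.00947). Averaged over all its probe sets the difference was -0.67 (adjusted p = 0.0188), and with the *Gapdh* 3' minus 5' signal as a covariate it was -1.15 (adjusted p = 0.151). Its relatives *Rcan1* (0.72, adjusted p = 0.0534) and *Rcan3* (0.48, adjusted p = 0.129), named after their values were seen, had differences of the other sign and did not pass. *Nfatc2*, of an NFAT transcription factor, had 8.46, 8.56 and 8.31 against 8.91, 9.06 and 8.97 (difference -0.53, adjusted p = 0.0268). Its adjusted p was 0.0594 and 0.107 without SOD1 G93A replicates 2 and 3, and 0.0935 and 0.0881 without WT replicates 2 and 3. Over all its probe sets the mean difference was -0.21 (adjusted p = 0.212). *Nfatc1* and *Stim1*, which encode the proteins named with TMEM178 above, had -0.15 (adjusted p = 0.443) and -0.24 (adjusted p = 0.295); they were named after their values were seen.

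Of 24 genes of osteoclast differentiation, the process in which TMEM178 has been studied, 5 were higher, 0 were lower (1 at an unadjusted p under 0.05) and 19 did not pass, with a median difference of 0.07. *Trem2*, a lipid-sensing receptor gene, had 10.51, 10.78 and 11.37 in SOD1 G93A and 9.29, 9.84 and 9.70 in WT arrays (difference 1.28, adjusted p = 0.0141). It had 0.18 by its other probe set, which is dimmer and has no suffix (adjusted p = 0.488), and 0.73 with both averaged (adjusted p = 0.0177). Its adjusted p was 0.0543 without SOD1 G93A replicate 2 and 0.0532 without WT replicate 3. The adaptor genes *Fcer1g* (0.67, adjusted p = 0.0166) and *Tyrobp* (0.52, adjusted p = 0.0212) and the lysosomal chloride transporter gene *Clcn7* (0.60, adjusted p = 0.0305) were higher too. The signals of *Tyrobp* lie above 13, near the top of the range. The fifth was the transcription factor gene *Mitf* (0.48, adjusted p = 0.039), named after its value was seen. *Fcer1g* had adjusted p = 0.0569, 0.0708 and 0.054 without SOD1 G93A replicates 2 and 3 and WT replicate 3. *Tyrobp* had 0.0664, 0.0818, 0.0672 and 0.0614 as adjusted p without SOD1 G93A replicates 2 and 3 and WT replicates 2 and 3. For *Clcn7* the adjusted p was 0.107, 0.117, 0.104 and 0.0974 without the same 4 arrays in turn, and 0.0658 when its probe sets were averaged. *Mitf* did not pass when any 1 of the 6 arrays was left out (adjusted p = 0.0561 to 0.132). Among the 19 that did not pass were *Acp5* (0.29), *Ctsk* (0.09), *Dcstamp* (0.07), *Atp6v0d2* (-0.05), *Ocstamp* (-0.13) and *Mmp9* (-0.88), named after their values were seen. *Trem2* and *Tyrobp* are also on the list of microglial markers, among those called higher, so the 2 lists share these calls.

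**Figure D2:**
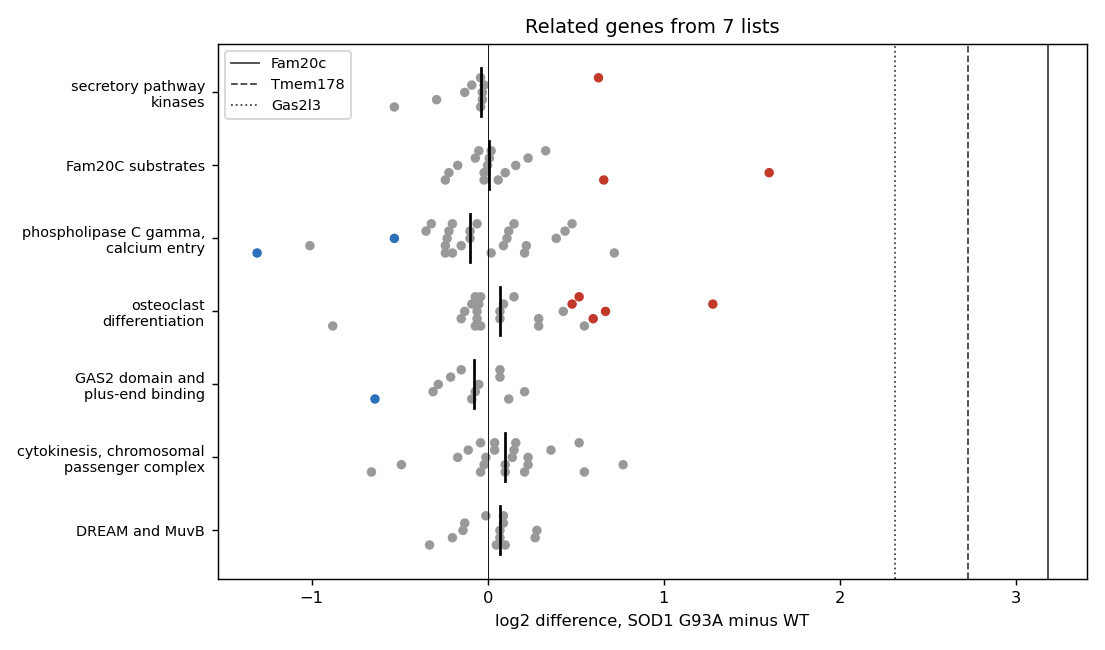
Log2 difference (SOD1 G93A minus WT) of each measured gene of 7 lists of related genes, drawn in red for genes that limma called higher, in blue for those called lower and in grey for the others, and with the median of each list as a black bar. Vertical lines are the differences of *Fam20c* (3.18), *Tmem178* (2.73) and *Gas2l3* (2.31). The largest difference among the listed genes is 1.60, and *Spp1*, the gene of osteopontin, is in none of the lists.

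*Gas2l3*, the gene of the cytoskeletal linker, was 4.97-fold higher in SOD1 G93A microglia by its brightest probe set (1437244_at). The log2 signals were 8.71, 9.60 and 9.58 in the SOD1 G93A arrays and 6.70, 7.42 and 6.83 in the WT arrays. The genotypes did not overlap, SOD1 G93A replicate 1 was the lowest of its group and WT replicate 2 the highest of its own. The means were 9.29 ± 0.51 and 6.98 ± 0.39 (SD, n = 3 each), a difference of 2.31 (standard error 0.266) and rank 11 among the rises. The probe set 1453416_at had 8.70, 9.14 and 8.88 against 6.88, 6.83 and 6.94, a difference of 2.02 (standard error 0.130). Of the 3 it had the least spread in each genotype. The probe set 1455980_a_at had 8.48, 9.11 and 9.22 against 6.75, 7.14 and 6.66, a difference of 2.08 (standard error 0.207).

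The other genes with a GAS2 domain had differences between -0.31 and 0.21. *Gas2* itself had 4.94, 5.13 and 5.33 against 5.22, 5.14 and 5.25 (difference -0.07, adjusted p = 0.82). *Gas2l1*, which also links actin to microtubules, had 8.27, 8.07 and 7.78 in SOD1 G93A and 8.37, 7.86 and 8.35 in WT arrays (difference -0.15, adjusted p = 0.692), and its 2 other probe sets had 0.26 and -0.21. *Gas2l2* had a signal under 5 in all arrays and a difference of -0.05 (adjusted p = 0.864). Of 12 genes with a GAS2 domain or that bind the plus ends of microtubules, 0 were higher (0 at an unadjusted p under 0.05), 1 was lower and 11 did not pass, with a median of -0.08. The 1 that fell was *Mapre2*, of an end-binding protein (difference -0.64, adjusted p = 0.038). By its brightest probe set without a suffix the difference was 0.15 (adjusted p = 0.528), and over all its probe sets it was -0.14 (adjusted p = 0.423). Its adjusted p was 0.0803, 0.0942 and 0.112 without SOD1 G93A replicates 1, 2 and 3 and 0.0786 and 0.123 without WT replicates 1 and 2.

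The genes of the process in which GAS2L3 acts did not pass. Of 22 genes of cytokinesis and the chromosomal passenger complex limma called 0 in either direction. At an unadjusted p under 0.05, 4 were higher and 1 was lower, and the methods' t-test called 0 after adjustment and 1 before it. Over all 18193 genes limma had 3929 at an unadjusted p under 0.05, so nothing is read from these unadjusted counts. The median difference was 0.10, with a range of -0.66 to 0.77. Of the passenger complex, *Aurkb*, its kinase, had 5.92, 6.00 and 6.14 in SOD1 G93A and 4.68, 5.63 and 5.44 in WT arrays (difference 0.77, adjusted p = 0.0752), while *Incenp* (-0.11), *Birc5* (-0.04) and *Cdca8* (-0.17) lay closer to 0. These 4 were named after their values were seen. Of 13 genes of the DREAM and MuvB complexes limma called 0, where 2 were higher and 1 was lower before adjustment, and 0 were called by the methods' t-test after adjustment. Their median was 0.07 and their range -0.33 to 0.28.

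The order of the arrays within a genotype is not fixed by the choice on the difference. In all 7 probe sets, which are not independent within a gene, the lowest of the 3 SOD1 G93A values was that of replicate 1. Of the 745 genes that were higher 390 (52.3%) had this order, and of all genes 32.2%. The order is thus not particular to the 3 genes. Replicate 1 was also the SOD1 G93A array with the largest *Gapdh* 3' minus 5' signal (4.63, against 4.28 and 3.47), and what part this had was not tested. Without both arrays numbered 1 the differences were 3.32 for *Fam20c*, 3.18 for *Tmem178* and 2.46 for *Gas2l3* by their brightest probe sets, and with the *Gapdh* signal as a covariate 3.04, 2.54 and 1.77. The highest WT value was in replicate 1 for *Tmem178* and for 2 probe sets of *Fam20c*, in replicate 2 for 2 probe sets of *Gas2l3*, and in replicate 3 for 1 probe set of each of *Fam20c* and *Gas2l3*, so no WT array was highest throughout. For *Tmem178* and the dimmest probe set of *Fam20c* this order is among signals close to background. All 7 probe sets were higher in every SOD1 G93A than in every WT array, as were 16.2% of all genes, and since the genes were picked on this contrast nothing is read from that count. The gap between the lowest SOD1 G93A and the highest WT array was 2.90 for *Fam20c*, 1.83 for *Tmem178* and 1.29 for *Gas2l3*. Over all genes 21 had a difference of at least 2, the 3 genes among them, and the median absolute difference was 0.144.

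**Figure D3:**
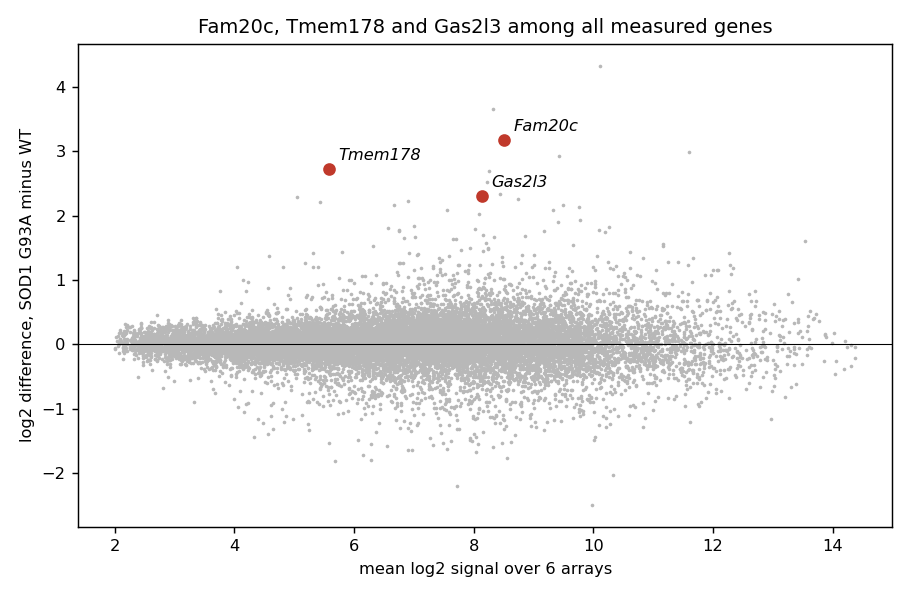
Log2 difference (SOD1 G93A minus WT) of 18193 genes against their mean log2 signal over 6 arrays, each point a gene by its brightest probe set. *Fam20c*, *Tmem178* and *Gas2l3* (red) lie at 3.18, 2.73 and 2.31, while the median absolute difference of all genes (grey) is 0.144.

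**Figure D4:**
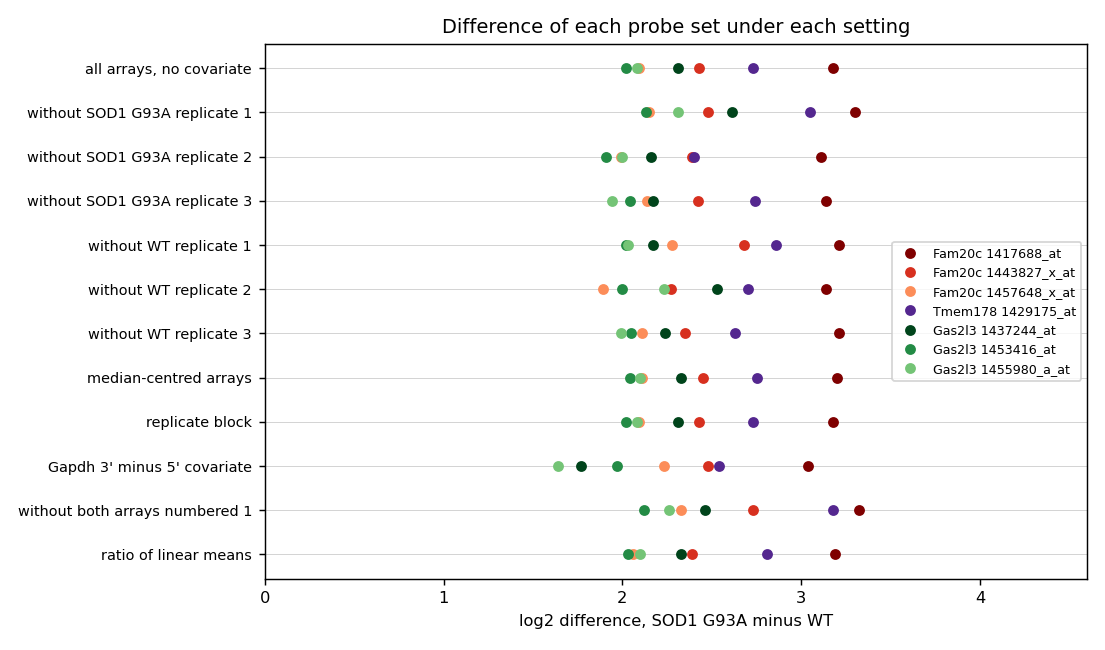
Log2 difference (SOD1 G93A minus WT) of the 7 probe sets under each setting, with 1 colour per probe set. Every difference lies between 1.64 and 3.32, and the lowest are those of 2 *Gas2l3* probe sets with the *Gapdh* covariate.

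The genes with the most similar pattern were found by the root mean square distance over the 6 arrays between log2 signals, each gene centred on its own mean, among 14060 genes with a mean signal of at least 5. Nearest to *Fam20c* were *Lpl*, of lipoprotein lipase (0.14), *Ch25h*, of an enzyme that hydroxylates cholesterol (0.16), *Itgax*, of the integrin CD11c (0.25), the growth factor gene *Igf1* (0.31) and the chemokine gene *Ccl5* (0.46). *Lpl* had 12.75, 13.34 and 13.22 in SOD1 G93A and 10.33, 9.95 and 10.05 in WT arrays. The first of its SOD1 G93A signals lies just under 13 and the others above it, near the top of the range. In the SOD1 G93A arrays *Lpl*, *Igf1* and *Ccl5* had the order of *Fam20c*, while *Ch25h* and *Itgax* had replicate 3 above replicate 2. Nothing is read from this order.

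Nearest to *Tmem178* were *Ccl5* (0.24), *Lpl* (0.26), *Itgax* (0.34), the pyrophosphate transporter gene *Ank* (0.35) and the receptor kinase gene *Axl* (0.38). *Ccl5* had 9.05, 9.99 and 9.77 in SOD1 G93A and 7.46, 7.20 and 7.13 in WT arrays. In the SOD1 G93A arrays *Ccl5*, *Lpl* and *Ank* had the order of *Tmem178*, while *Itgax* and *Axl* had replicate 3 above replicate 2. The WT signals of *Tmem178* are close to background and its mean reaches 5 only through the SOD1 G93A arrays, so the WT part of its distances cannot be read as a pattern. Nearest to *Gas2l3* were *Pld3*, of a lysosomal exonuclease (0.25), *Ank* (0.26), *Cd22*, of a sialic acid binding lectin (0.27), *Ccl5* (0.29) and *Rai14*, of an actin-binding protein (0.29). *Pld3* had 10.09, 10.99 and 11.42 in SOD1 G93A and 8.60, 8.76 and 8.73 in WT arrays. Its replicate 3 lay above replicate 2 in SOD1 G93A, unlike in *Gas2l3*. *Ank* had 10.21, 10.87 and 10.67 against 8.48, 8.45 and 8.30. Of these genes 4 were near more than 1 of the 3, *Ccl5* near all of them. *Fam20c* and *Tmem178* lay 0.38 from each other, *Tmem178* and *Gas2l3* 0.41, and *Fam20c* and *Gas2l3* 0.54. Counted by nearness, *Fam20c* and *Tmem178* were each in place 5 of the other. *Gas2l3* was in place 12 from *Fam20c* and in place 10 from *Tmem178*. From *Gas2l3*, *Tmem178* was in place 18 and *Fam20c* in place 45. These distances rest on 6 arrays in which the genotype sets most of the pattern. The 3 genes were picked on that difference, and 21 genes in all had one of at least 2. Near places among the 3 thus follow in large part from the choice, and nothing is read from them or from the shared genes. When 1 array was left out, 4 to 5 of the 5 genes remained for *Fam20c*, 2 to 5 for *Tmem178* (2 without SOD1 G93A replicate 2) and 2 to 4 for *Gas2l3* (3 without SOD1 G93A replicates 1 or 2 and 2 without SOD1 G93A replicate 3).

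**Figure D5:**
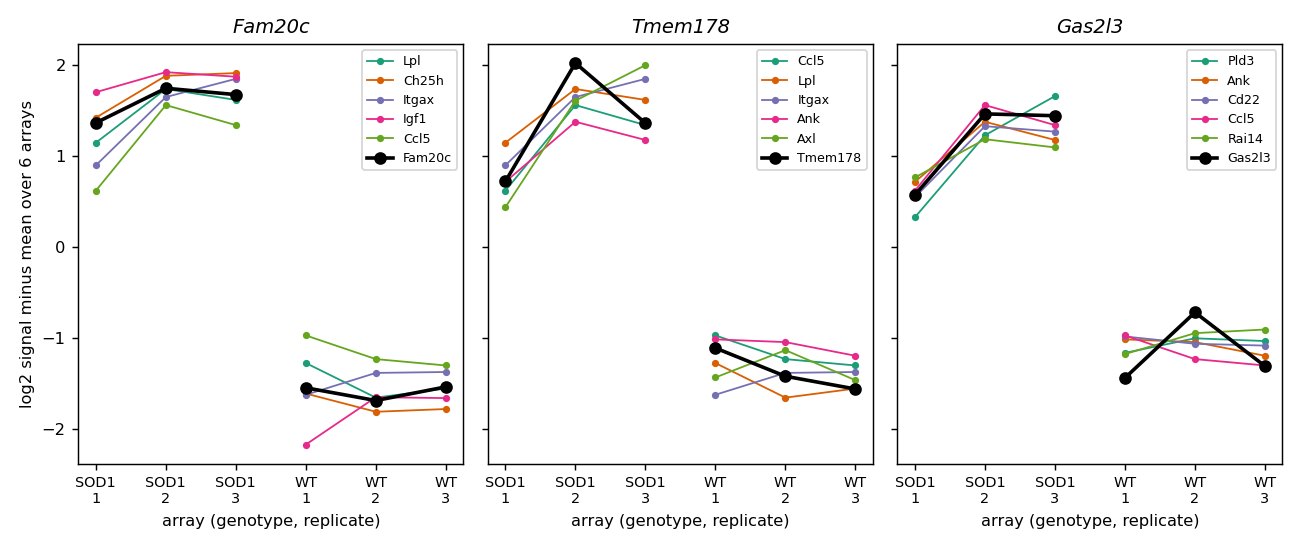
Log2 signal of *Fam20c*, *Tmem178* and *Gas2l3* (black) and of the 5 genes nearest to each (colours) in every array, each centred on its mean over the 6 arrays. Lines only join the arrays of 1 genotype for each gene; SOD1 G93A replicate 1 lies below replicates 2 and 3 for every gene drawn.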

How the data were processed

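Affymetrix arrays of the mouse transcriptome measured RNA of CD11b-positive lumbar microglia, 3 of SOD1 G93A and 3 of WT males. The values the authors deposited are signals of probe sets on a log2 scale, described in the submitters' processing notes as RMA in Partek, without versions. The methods name MAS 5.0 instead, whose signals are not used here. The labels describe standard labelling of total RNA and the methods a double amplification. Genome build is not given in the sources used here, and promoters are of GRCm38.p6.

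All 45037 probe sets other than controls were fitted with limma 3.58.1 (lmFit, eBayes) in R 4.3.3, genotype being the only term. Of them 34945 have 1 symbol in the platform annotation, 932 several and 9160 none, and 34741 have an entry in the RefSeq table. The brightest probe set by mean signal stood for each of 18193 genes, and p-values were Benjamini-Hochberg adjusted over the genes. The members and lists were chosen with earlier results of these data known. The genes named are all probe sets of the members, close relatives, up to 4 passing genes per list with the largest difference, the 5 nearest genes, and the sort marker *Itgam* with *Aif1*. Genes outside this rule are said in the report to have been named after their values were seen. Some list genes are not reported here. The number of arrays sets the precision, as there is no counting depth. Same-numbered arrays were not taken as pairs: the correlations of their deviations from the group means were 0.44, 0.24 and 0.041, and pairing was set to need over 0.1 in each. The fit was tested on simulated data. The alternatives were the methods' t-test with unequal variance, eBayes with trend and robust, median-centred arrays, a minimum signal of 5, other probe sets per gene, linear means, a replicate block and each array left out; after seeing the data a *Gapdh* covariate and a fit without both arrays numbered 1 were added. Tables and figures were made in Python 3.11.15 (matplotlib 3.10.9, numpy 2.4.6, pandas 2.3.3).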

Additional observations from a re-analysis of the deposited data

How the results depend on the processing

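The 77 values of the members' 7 probe sets under 11 alternatives ranged from 1.64 to 3.32. As the genes were picked for large rises and their genotypes did not overlap, most of these settings could not turn the direction. Nothing is read from the direction being kept. With the *Gapdh* covariate 2 probe sets of *Gas2l3* moved to 1.77 and 1.64, and with the mean of all probe sets the gene *Fam20c* moved to 2.57; the cause was not tested. The numbers of all genes higher and lower were 745 and 461. They were 0 and 0 by the methods' t-test (2690 genes at an unadjusted p under 0.05), 64 and 25 with the covariate, 1238 and 983 with a replicate block, and 1005 and 837 without both arrays numbered 1. The covariate was 3.47 to 4.63 in SOD1 G93A and 4.79 to 5.01 in WT arrays. It goes with the genotype, so the lower counts and moved differences with it cannot be read as a part of RNA length. The numbers in the labels are not known to pair the arrays, and SOD1 G93A replicate 3 correlated best with WT replicate 2. With 1 array left out the genes higher ranged from 255 (without SOD1 G93A replicate 3) to 719 and the genes lower from 103 to 539; SOD1 G93A replicate 2 (298 and 148) and WT replicates 2 (315 and 141) and 3 (264 and 169) lowered them by over 1.5 times too. For the lists, the methods' t-test called 0 in each. With the covariate 1 Fam20C substrate (*Apoe*) was higher and 0 were called for secretory kinases, calcium entry, osteoclast differentiation and GAS2 domain genes. With the block, and equally without both arrays numbered 1, 1 secretory kinase was lower, 3 calcium entry genes were higher, 1 osteoclast gene was lower, and 1 cytokinesis gene was higher and 2 were lower; *Mapre2* was not called without both arrays numbered 1, which left 0 GAS2 domain genes. Secretory kinases had 0 higher with trend and robust and with the mean of all probe sets, calcium entry 1 higher with median-centred arrays, and cytokinesis 1 higher with the mean of all probe sets and without suffixed ones. *Mapre2* reversed to 0.15 without suffixed probe sets. In that setting and with the mean of all probe sets 1 gene of the GAS2 domain list was still lower, but it was not *Mapre2*. With 1 array left out, 0 to 1 secretory kinases and 1 to 2 Fam20C substrates were higher, 0 to 2 calcium entry genes higher (2 without SOD1 G93A replicate 1, 1 without WT replicate 1) and 1 to 3 lower (3 without WT replicate 1), 0 to 5 osteoclast genes higher (0 without SOD1 G93A replicate 2 or WT replicate 3) and 0 to 1 lower, 0 to 1 GAS2 domain genes and 0 to 1 cytokinesis genes lower, and of the 5 nearest genes 4 to 5 remained for *Fam20c*, 2 to 5 for *Tmem178* and 2 to 4 for *Gas2l3*.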
